A study of Homo sapiens with 16 samples.

Results

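Cytochrome P450 genes encode haem enzymes that insert oxygen into lipids, sterols and drugs. The members were all probes whose gene symbol is CYP followed by a family number, a letter and a second number, with CYP51A1 of cholesterol synthesis left out. They were 49 probes of 46 genes, among 30968 probes and 15240 gene symbols in all, and CYP17A1, CYP19A1 and CYP26C1 had 2 probes each. By family number, 19 genes (19 probes) belonged to families 1 to 3, which hold most drug-oxidising enzymes, 9 genes (9 probes) to family 4 of fatty acid hydroxylation, 8 genes (8 probes) to families 7, 8, 27, 39 and 46 of sterol and bile acid conversion, and 10 genes (13 probes) to the remaining families. These classes follow the family number alone, so that CYP2R1 and CYP27B1, which activate vitamin D, stand in the drug and sterol classes. CYP2B6, CYP4A11 and CYP4F2 were not analysed here.

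The samples were cultures of HepG2, an established human hepatoblastoma-derived cell line widely used as a hepatocyte model. Control cells received no fatty acid, and the other groups received 100 µM oleic, elaidic or stearic acid, each for 7 days. All groups were kept without serum, and each of the 4 held 4 biological replicates, whose RNA was labelled with Cy5 and hybridised to 1-colour expression arrays as 2 technical replicates per sample. Elaidic acid is the trans isomer of oleic acid, and stearic acid is the saturated acid of the same chain length. The series' title gives the search for markers of elaidic acid, a dietary trans fat, as its aim. What separated the biological replicates, such as passage or day, is not stated, so p-values measure the spread between these samples, and fewer cells and less RNA per cell cannot be told apart.

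A P450 enzyme of the endoplasmic reticulum receives its electrons from NADPH through the reductase POR, and a mitochondrial one through FDXR and FDX1. In liver, nuclear receptors that sense drugs, bile acids, oxysterols and fatty acids, such as PXR, CAR, FXR, LXR and PPARα, set the transcription of many of these genes, and the aryl hydrocarbon receptor AHR that of family 1. HepG2 cells are known for low levels of many drug-oxidising P450 enzymes compared with primary hepatocytes. Fatty acids are substrates of family 4 and ligands of PPARα, and bile acid synthesis starts with CYP7A1 or CYP27A1.

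Each sample's array number lies in 1 of 2 number ranges, here named slide series A and B. Series A held 10 samples, namely every control and oleic acid sample and 2 of elaidic acid (samples 2 and 4). Series B held 6, namely every stearic acid sample and the elaidic acid samples 1 and 3. No series holds stearic acid together with control or oleic acid, so in those comparisons treatment and series cannot be told apart within a series. With series as a block, the elaidic acid difference from control or oleic acid is that within series A (2 against 4 samples), the elaidic acid difference from stearic acid that within series B (2 against 4), and the stearic acid difference from control runs through the elaidic acid samples. Median intensity was 20 to 72.8 over the arrays of series A and 45.8 to 76.1 over those of series B. Of the 12 hepatocyte markers, 11 had a probe by symbol, and their mean normalised log2 intensity over the 10 tested was 11.03 to 12.20 in control, 10.94 to 11.93 in oleic acid, 12.35 to 12.37 in elaidic acid of series A, 13.06 to 13.18 in elaidic acid of series B and 12.80 to 13.00 in stearic acid. FGA was at or below 0 in 7 samples, and ALB was not analysed here. Of the 10, 6 were called higher with stearic acid than in control, where 15% of all probes were. With elaidic acid 1, TTR, was called higher, where 0.323% of all probes were called. The list's medians were 0.99 and 0.89, and with series as a block 0.39 and 0.57, with 0 called in both. What part these marker differences have in the P450 differences was not tested. Over 11 tested markers of other cell types the mean was 6.35 to 6.75, 6.14 to 6.99, 5.93 to 6.51, 6.28 to 6.32 and 6.04 to 6.21 in the same order. Of these 11, COL1A2 at -1.26 ± 0.24 and KRT5 at -1.04 ± 0.36 were called lower with stearic acid than in control (limma adjusted p = 0.0031 and 0.041). There 14.8% of all probes were called lower. The list's median was -0.59, and 0 with series as a block, where 0 of the 11 were called. Between oleic and stearic acid 4 were called higher with oleic acid (COL1A2, CDH5, KRT5 and INS), beside 21% of all probes. With series as a block 0 were called, and the list's median went from 0.76 to 0.21. The part of these markers in the P450 differences was not tested either. Of the fibroblast markers COL3A1 was at or below 0 in 5 samples, while COL1A1, COL1A2 and DCN read 123.1 to 390.0, 34.0 to 105.5 and 2.8 to 24.2. The probes of CD14 and INS, of monocytes and pancreatic beta cells, read 810.5 to 1858.8 and 1295.9 to 2579.0. Those of CDH5 and KRT5 read 215.8 to 774.5 and 93.7 to 340.3, and those of PECAM1, VWF, PTPRC, CD3E and KRT14 at most 55.4.

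Windows of 250 bases before a gene's start are printed for 6 members. Of the CYP3A cluster 3 are shown, since CYP3A4 and CYP3A5 were called lower with stearic acid and CYP3A7 was not. CYP27A1 had the largest difference from control, CYP17A1 the smallest p of all members, and CYP26A1 the smallest p between elaidic and oleic acid. They are RefSeq sequences on GRCh38.p14, read 5′ to 3′ on the gene's strand. CYP3A4 (chr7:99784185-99784434), CYP3A5 (chr7:99679997-99680246), CYP3A7 (chr7:99735197-99735446) and CYP17A1 (chr10:102837414-102837663) are on the minus strand, and CYP27A1 (chr2:218781897-218782146) and the downstream of 2 listed starts of CYP26A1 (chr10:93073643-93073892) on the plus strand. Capitals mark TATAAA on the gene's strand and the nuclear receptor hexamers AGGTCA and AGTTCA on either strand (TGACCT and TGAACT on the other).
CYP3A4: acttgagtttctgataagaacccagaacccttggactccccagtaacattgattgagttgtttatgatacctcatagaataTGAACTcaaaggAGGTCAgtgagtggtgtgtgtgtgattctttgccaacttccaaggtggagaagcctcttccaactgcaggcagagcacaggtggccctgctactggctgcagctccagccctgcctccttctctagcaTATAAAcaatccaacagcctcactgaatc
CYP3A5: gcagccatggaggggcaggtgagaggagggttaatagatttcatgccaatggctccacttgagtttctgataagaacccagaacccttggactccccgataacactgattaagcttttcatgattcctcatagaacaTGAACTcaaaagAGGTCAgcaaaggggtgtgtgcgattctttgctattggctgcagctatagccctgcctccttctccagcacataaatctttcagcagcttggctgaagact
CYP3A7: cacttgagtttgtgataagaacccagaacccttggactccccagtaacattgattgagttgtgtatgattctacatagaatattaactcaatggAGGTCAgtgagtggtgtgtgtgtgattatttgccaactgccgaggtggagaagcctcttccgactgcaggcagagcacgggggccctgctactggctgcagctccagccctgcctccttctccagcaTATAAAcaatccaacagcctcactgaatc
CYP27A1: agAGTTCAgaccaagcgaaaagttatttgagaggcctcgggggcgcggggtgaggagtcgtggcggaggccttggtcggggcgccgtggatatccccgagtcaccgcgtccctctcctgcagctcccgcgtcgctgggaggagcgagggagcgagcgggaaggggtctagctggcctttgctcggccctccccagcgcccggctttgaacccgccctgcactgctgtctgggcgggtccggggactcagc
CYP17A1: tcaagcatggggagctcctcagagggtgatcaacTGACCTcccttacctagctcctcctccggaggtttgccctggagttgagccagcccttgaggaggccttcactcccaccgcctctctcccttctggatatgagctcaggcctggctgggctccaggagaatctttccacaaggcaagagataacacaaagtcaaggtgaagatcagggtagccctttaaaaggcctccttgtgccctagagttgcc
CYP26A1: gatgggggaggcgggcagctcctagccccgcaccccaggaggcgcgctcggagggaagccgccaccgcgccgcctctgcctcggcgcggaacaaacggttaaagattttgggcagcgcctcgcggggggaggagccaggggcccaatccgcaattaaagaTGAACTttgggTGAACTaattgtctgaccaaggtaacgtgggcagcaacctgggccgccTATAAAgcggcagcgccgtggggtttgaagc

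In CYP3A4 the hexamer TGAACT starts 169 bases and AGGTCA 157 bases before the start, and in CYP3A5 they start 113 and 101 bases before it. The joined form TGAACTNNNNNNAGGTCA, an everted repeat known as a PXR element of CYP3A4, was found on either strand in 3 of 34943 windows (0.00859%), those of CYP3A4, CYP3A5 and ITGB1BP2. In CYP3A7 AGGTCA starts 156 bases before the start, and AGTTCA was found on neither strand. CYP26A1, known as a retinoic acid target, holds TGAACT at 90 and again at 79 bases before its start. Over the 47 windows of the 34 member genes matched by symbol, TATAAA was in 15 (31.9%, against 6.82% of all windows), AGGTCA on either strand in 11 (23.4%, against 12.1%) and AGTTCA on either strand in 6 (12.8%, against 8.81%). AGGTCA and AGTTCA can both be part of the joined form, neighbouring genes share similar promoters, and a match is a description of letters only.

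Of the 49 probes, 36 had a value above 0 in all 16 samples and were tested, with 13 left out. The test was limma's moderated test on quantile-normalised log2 intensity over 22939 probes, and called probes are those under 0.05 after Benjamini-Hochberg adjustment. Stearic acid against control gave 12 called P450 probes (33.3%), 1 higher and 11 lower. Over all probes 29.8% were called, 15% higher and 14.8% lower, and the P450 share called lower was 30.6%. Oleic acid against stearic acid gave 19 called (52.8%, against 39.5% of all probes), of which 16 were higher with oleic acid (44.4%, against 21%) and 3 lower (8.33%, against 18.4%). All 12 probes of the former comparison are among the 19, and both comparisons use the same stearic acid samples. No P450 probe was called between elaidic acid and control (0.323% of all probes were), oleic acid and control (0%), elaidic and oleic acid (0.318%), or elaidic and stearic acid (0.397%). Before adjustment, limma's p was under 0.05 for 4, 1, 11 and 8 P450 probes in these 4 comparisons, and for 14.3%, 2.62%, 18.9% and 14.5% of all probes.

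With slide series as a block, limma called 0 P450 probes in each of the 6 comparisons, and 9, 0, 0, 5, 1 and 0 probes in all for elaidic acid against control, oleic acid against control, stearic acid against control, elaidic against oleic, elaidic against stearic and oleic against stearic acid. These are 0.0392%, 0%, 0%, 0.0218%, 0.00436% and 0% of the probes tested. In the same order 0, 1, 1, 0, 1 and 1 P450 probes had an unadjusted p under 0.05, beside 6.53%, 3.31%, 7.45%, 5.85%, 5.82% and 6.6% of all probes. Among the 12 probes called between stearic acid and control, the smallest adjusted p with the block was 0.63. The median stearic acid difference over the 36 probes was -0.74 on the log2 scale, beside -0.18 over all probes, and -0.19 with the block. Without normalisation between samples the 12 calls became 1, higher, where 13.5% of all probes were called, and the 19 became 4, with 1 higher and 3 lower with oleic acid, where 22.3% were.

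The elaidic acid samples, which lie in both series, show how the P450 probes differed between series under 1 treatment. Series B was lower than series A for 25 of the 36 probes and higher for 11, by a median of -0.43 (all probes -0.13), from 2 samples against 2. CYP27A1 alone among them was called, 2.25 ± 0.45 higher in series B (SE, adjusted p = 0.021, limma), beside 4.05% of all probes, and 11 had an unadjusted p under 0.05 (28% of all probes). All 12 probes called between stearic acid and control, and all 19 called between oleic and stearic acid, lay on the same side in series B of elaidic acid as in stearic acid. The matching share among all called probes was not computed, so these counts do not set the P450 probes apart from other called probes. Across the 36 probes the series difference and the stearic acid difference from control had Pearson's r of 0.88 and Spearman's rho of 0.74, with 31 of the same sign (86.1%), beside 0.72, 0.72 and 79.5% over all 22939 probes. The 2 differences share no sample, though all samples were normalised together, and probes are not independent replicates.

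**Figure D1:**
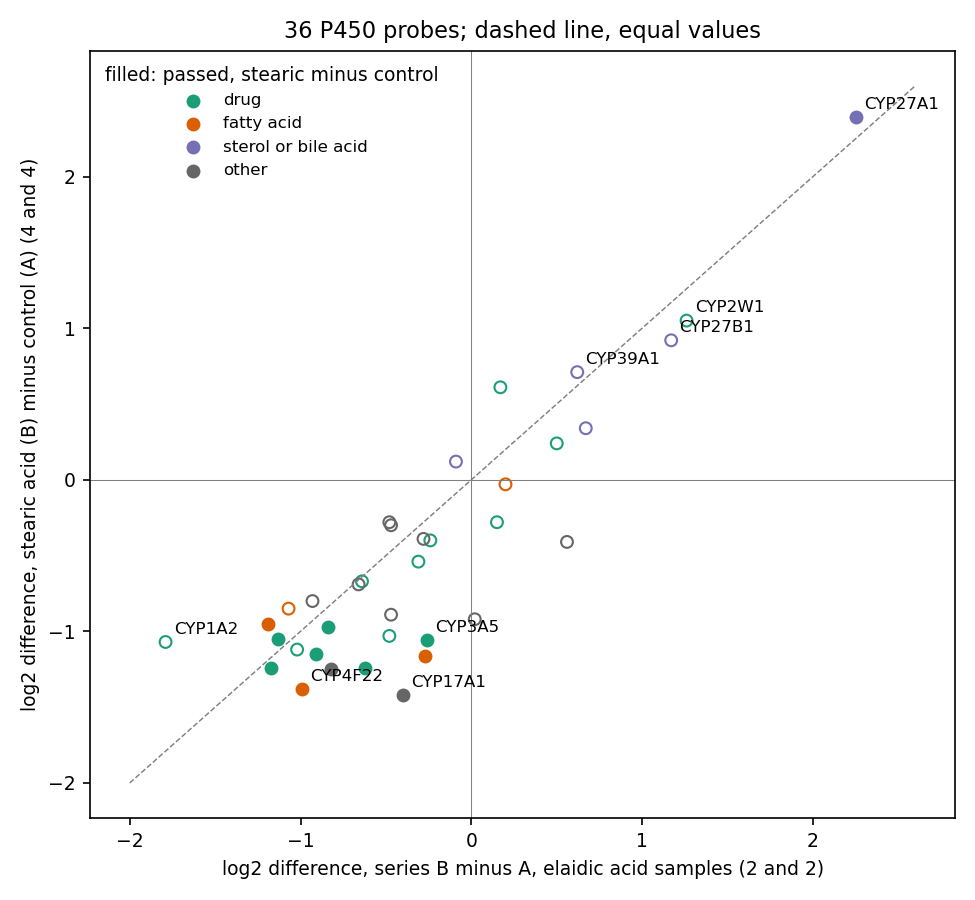
Log2 difference between slide series B and A within the elaidic acid samples (horizontal axis, 2 samples against 2) and between stearic acid in series B and control in series A (vertical axis, 4 against 4) for the 36 tested P450 probes. Colours give the class, filled points the 12 probes called with stearic acid, and the dashed line equal values. CYP27A1 lies at 2.25 and 2.39.

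The sterol and bile acid class had 5 tested probes, and CYP27A1 (probe PH_hs_0004731), the mitochondrial sterol 27-hydroxylase of the alternative bile acid pathway, was the tested P450 probe with the largest difference from control. Its deposited intensities were 434.2, 1213.5, 1425.7 and 2023.4 in control samples 1 to 4, 1475.9, 1276.9, 1150.3 and 361.0 in oleic acid, 7574.6, 999.9, 7687.6 and 897.6 in elaidic acid, and 10748.1, 6423.4, 11020.9 and 12428.5 in stearic acid. The stearic acid samples lay above every control and oleic acid sample, and the elaidic acid samples split, with series B (1 and 3) beside stearic acid and series A (2 and 4) beside control. After normalisation CYP27A1 was 2.39 ± 0.51 higher with stearic acid than in control (log2, SE, n = 4 per group, 5.23-fold, limma adjusted p = 0.0053) and 0.14 ± 0.55 with the series block. Elaidic acid differed from control by 1.03 ± 0.51 (adjusted p = 0.37) over all samples and by -0.10 within series A. The difference of oleic from stearic acid was -2.52 ± 0.51 (adjusted p = 0.0036).

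CYP39A1, the oxysterol 7α-hydroxylase that prefers 24-hydroxycholesterol, read 8.15, 8.72, 7.97 and 8.52 in control (normalised log2 intensity), 8.55, 7.91, 7.92 and 7.92 in oleic acid, 8.51, 7.57, 8.53 and 8.24 in elaidic acid, and 9.02, 8.95, 9.34 and 8.88 in stearic acid. Every stearic acid sample was above every other sample. The difference of oleic from stearic acid was -0.97 ± 0.26 (adjusted p = 0.013, limma) and passed, while that of stearic acid from control, 0.71 ± 0.26, did not (adjusted p = 0.052). Within series B, elaidic acid differed from stearic acid by -0.52 ± 0.29 (adjusted p = 0.97), and over all samples by -0.83 (95% interval -1.39 to -0.28, adjusted p = 0.17).

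CYP8B1, the sterol 12α-hydroxylase that sets the share of cholic acid, differed little among groups. Its normalised log2 intensity ranged from 6.43 to 7.24 over all 16 samples, and the differences from control were 0.29 for oleic, 0.21 ± 0.20 for elaidic and 0.12 ± 0.20 for stearic acid, none of which passed. CYP46A1, the cholesterol 24-hydroxylase known from neurons, differed from control by 0.34 ± 0.30 with stearic acid, and CYP27B1, the vitamin D 1α-hydroxylase, by 0.92 ± 0.58. CYP7A1, the rate-limiting enzyme of the classical bile acid pathway, was at or below 0 in 4 samples and read -6.5 to 18.4. CYP7B1, the oxysterol 7α-hydroxylase of the alternative pathway, was at or below 0 in 5 samples and read -5.6 to 10.3, and CYP27C1, a retinoid desaturase, was at or below 0 in 7. No level and no fold are given for those 3.

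**Figure D2:**
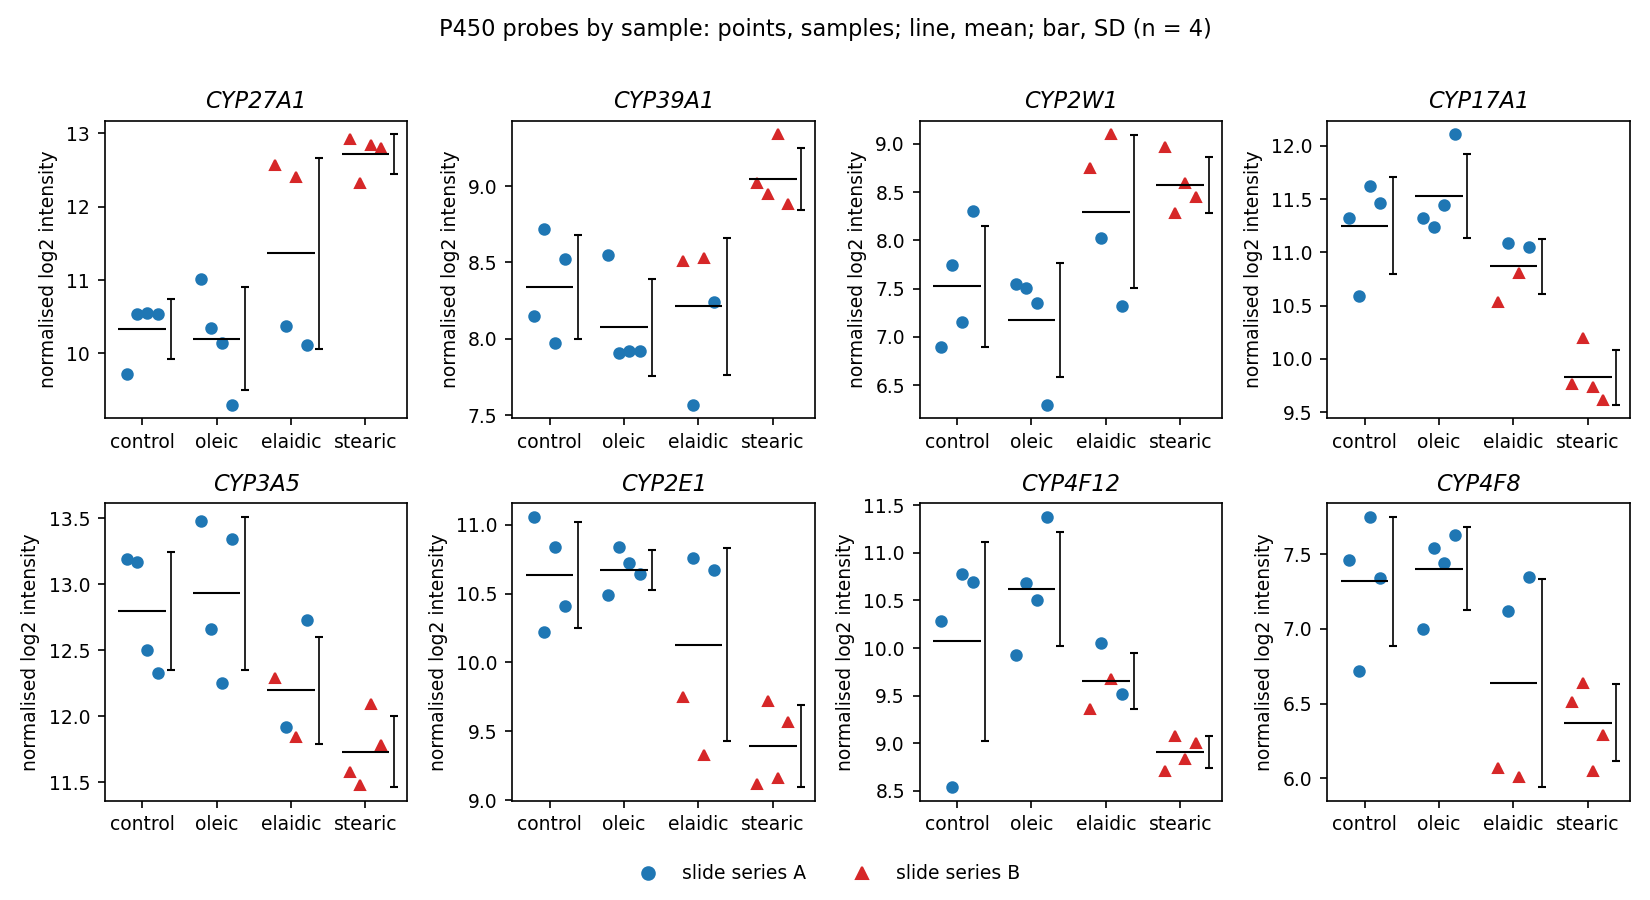
Normalised log2 intensity of 8 P450 probes in each sample of the 4 groups. Points are samples (circles series A, triangles series B), lines group means and bars the SD (n = 4). For CYP27A1 the elaidic acid samples of series B, at 12.57 and 12.41, sit with stearic acid at 12.32 to 12.92, and those of series A, at 10.37 and 10.11, with control.

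In the drug class 16 of 19 probes were tested, and 6 were called lower with stearic acid than in control and 0 higher (37.5% called, beside 14.8% of all probes called lower and 15% higher). The class median was -1, and -0.19 with the series block, beside -0.18 and 0.01 over all probes. The 6 were CYP3A4, CYP3A5, CYP2E1, CYP2S1, CYP2A13 and CYP2C8. Between oleic and stearic acid 9 were called, 8 higher and 1 lower with oleic acid, beside 21% and 18.4% of all probes.

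The CYP3A genes lie in 1 cluster on chromosome 7, where CYP3A7 is next to CYP3A4 and CYP3A4 next to CYP3A43. CYP3A4 (PH_hs_0025855), which oxidises more prescribed drugs than other P450 enzymes, read 6.93, 6.23, 6.94 and 6.83 in control (normalised log2 intensity), 6.25, 7.02, 6.74 and 7.50 in oleic acid, 5.58, 6.24, 5.88 and 6.47 in elaidic acid, and 5.82, 4.81, 5.76 and 5.59 in stearic acid. Stearic acid lay below all samples of control and of oleic acid, and within elaidic acid series B lay below series A. Stearic acid differed from control by -1.24 ± 0.31 (n = 4 per group, adjusted p = 0.011, limma), and by -0.61 ± 0.51 with the block. The elaidic acid difference from control was -0.69 ± 0.31 (adjusted p = 0.34), and -0.38 within series A.

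CYP3A5, a close relative expressed in part of the population, read 13.19, 13.17, 12.50 and 12.33 in control, 13.48, 12.66, 12.25 and 13.34 in oleic acid, 12.29, 11.92, 11.84 and 12.73 in elaidic acid, and 11.58, 11.48, 12.09 and 11.78 in stearic acid (normalised log2 intensity). Its stearic acid samples were also below those of control and oleic acid, but its elaidic acid samples of the 2 series overlapped. The stearic acid difference was -1.06 ± 0.32 (adjusted p = 0.023, limma), and -0.80 ± 0.55 with the block. CYP3A7, the fetal form, overlapped among all groups and differed by -0.40 ± 0.33. CYP3A43 was at or below 0 in 2 samples. How far these probes read each other's transcripts was not tested, since probe sequences were not used here.

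CYP2E1 (PH_hs_0004282), which oxidises ethanol and also hydroxylates fatty acids, read 11.06, 10.22, 10.84 and 10.41 in control, 10.49, 10.84, 10.72 and 10.64 in oleic acid, 9.75, 10.76, 9.33 and 10.67 in elaidic acid, and 9.12, 9.72, 9.16 and 9.57 in stearic acid (normalised log2 intensity). The elaidic acid samples of series A, at 10.76 and 10.67, lay among control, and those of series B, at 9.75 and 9.33, beside stearic acid. Stearic acid differed from control by -1.24 ± 0.31 (adjusted p = 0.011, limma), a 2.37-fold fall, and by -0.07 ± 0.39 with the block. The difference between series within elaidic acid was -1.17 ± 0.32 (adjusted p = 0.053).

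CYP2S1, an extrahepatic family 2 enzyme, differed from control by -1.15 ± 0.30 with stearic acid, and CYP2A13, a nitrosamine-activating enzyme known from the airway, by -0.97 ± 0.31 (limma adjusted p = 0.012 and 0.032). With the series block these 2 differences were -0.24 ± 0.43 and -0.12 ± 0.48. CYP2C8, which oxidises arachidonic acid and several drugs, differed by -1.05 ± 0.34 (adjusted p = 0.035), and with the block by 0.08, the opposite sign. CYP2W1, a fetal and tumour P450, read 6.30 to 7.55 in oleic acid, 8.28 to 8.97 in stearic acid, 8.75 and 9.10 in elaidic acid of series B, and 8.02 and 7.32 in elaidic acid of series A. It was lower with oleic than with stearic acid by a difference of -1.39 ± 0.41 (adjusted p = 0.018), and its stearic acid difference from control, 1.05 ± 0.41, did not pass (adjusted p = 0.061). CYP2C18 at 0.83 ± 0.25 and CYP2J2, an epoxygenase of arachidonic acid, at 0.63 ± 0.21 passed between oleic and stearic acid (adjusted p = 0.020 and 0.028). Without normalisation between samples the CYP2C18 value was -0.04.

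Of the other drug class members, CYP2C19, which activates clopidogrel, differed from control by 0.61 ± 0.24 with stearic acid (adjusted p = 0.064, limma). CYP2D6, known for its common variants in drug oxidation, differed by 0.24 ± 0.42, and CYP1B1 of oestrogen and arene oxidation by -0.28 ± 0.33. CYP1A2, the caffeine demethylase, had an SD within groups of 1.02 on the log2 scale, beside a median of 0.46 over the 36 P450 probes and 0.52 over all probes. Its deposited intensity ran from 2425.0 to 23535.8 within oleic acid alone, and its stearic acid difference was -1.07 ± 0.66 (adjusted p = 0.21). CYP2U1, a long-chain fatty acid hydroxylase, was at or below 0 in 4 samples.

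CYP1A1, the classical AHR target next to CYP1A2 on chromosome 15, was dim and was left out through 1 sample. It read 10.9, 20.5, 12 and 32.3 in control, 11.6, 6.0, 14.7 and -2.9 in oleic acid, 25.9, 13.5, 31.2 and 14.9 in elaidic acid, and 37.1, 40.5, 36.6 and 39.4 in stearic acid (deposited intensity). Every stearic acid sample was above every other sample, and within elaidic acid series B was above series A. These values were not scaled between samples, and array medians were 45.8 to 76.1 in stearic acid and 20 to 72.8 in control. In elaidic acid they were 53.9 and 57.8 in series B and 25.5 and 32.6 in series A. With 50 added to all values so that every probe was kept, oleic acid differed from stearic acid by -0.47 ± 0.10 on the log2(intensity + 50) scale (adjusted p = 0.0031, limma over 30968 probes, of which 31.1% were called), a scale that understates the change of dim probes. On that scale stearic acid differed from control by 0.25 ± 0.10 and did not pass (limma adjusted p = 0.065).

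Family 4 had 5 tested probes of 9, and CYP4F22, CYP4F8 and CYP4F12 were called lower with stearic acid than in control, with 0 higher, beside 14.8% of all probes called lower and 15% higher. These genes are in 1 cluster on chromosome 19 with CYP4F3. CYP4F22 (PH_hs_0009443), the ultra-long-chain fatty acid ω-hydroxylase of skin ceramides, read 8.04, 7.33, 7.84 and 7.28 in control, 7.39, 7.75, 7.84 and 8.17 in oleic acid, 6.33, 7.45, 6.78 and 7.65 in elaidic acid, and 5.77, 6.84, 6.12 and 6.24 in stearic acid (normalised log2 intensity). Stearic acid did not overlap with control or oleic acid, and the 2 elaidic acid samples of series A were above the 2 of series B. The stearic acid difference was -1.38 ± 0.32 (adjusted p = 0.0076, limma), and -0.39 ± 0.46 with the block.

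CYP4F8, a prostaglandin hydroxylase of seminal vesicles, was called at -0.95 ± 0.32 (adjusted p = 0.039, limma), while the value with the block was 0.25, the opposite sign. Its elaidic acid samples read 6.07 and 6.01 in series B and 7.12 and 7.35 in series A. CYP4F12, a hepatic arachidonic acid hydroxylase, read 10.28, 8.54, 10.78 and 10.69 in control, 9.93, 10.68, 10.50 and 11.38 in oleic acid, 9.36, 10.05, 9.68 and 9.52 in elaidic acid, and 8.71, 9.08, 8.84 and 9.00 in stearic acid (normalised log2 intensity). Control sample 2 was below all stearic acid samples, and the other control samples were above them. The stearic acid difference was -1.16 ± 0.42 (adjusted p = 0.048, limma), and -0.90 ± 0.74 with the block, and oleic acid was higher than stearic acid by 1.71 ± 0.42 (adjusted p = 0.0083).

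CYP4X1, an orphan enzyme that oxidises anandamide, and CYP4B1, a fatty acid hydroxylase of lung, were not called in any comparison. CYP4X1 had the smallest p of the class between elaidic acid and control, -1.06 ± 0.40 (95% interval -1.90 to -0.21, adjusted p = 0.26, limma), and -0.52 within series A. CYP4F3, the leukotriene B4 hydroxylase, was left out and read 67.5, -4.0, 40.1 and 11.9 in elaidic acid samples 1 to 4, 17.2 to 35.6 in stearic acid and at most 20.1 in control and oleic acid (deposited intensity). CYP4V2, an ω-hydroxylase of the eye, read 58.9, 5.0, 41.6 and 6.5 in elaidic acid, 19.5 to 40.6 in stearic acid and at most 16 in control and oleic acid. For both probes the elaidic acid samples of series B were the highest of all samples. CYP4F11 and CYP4Z1 were each at or below 0 in 4 samples.

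**Figure D3:**
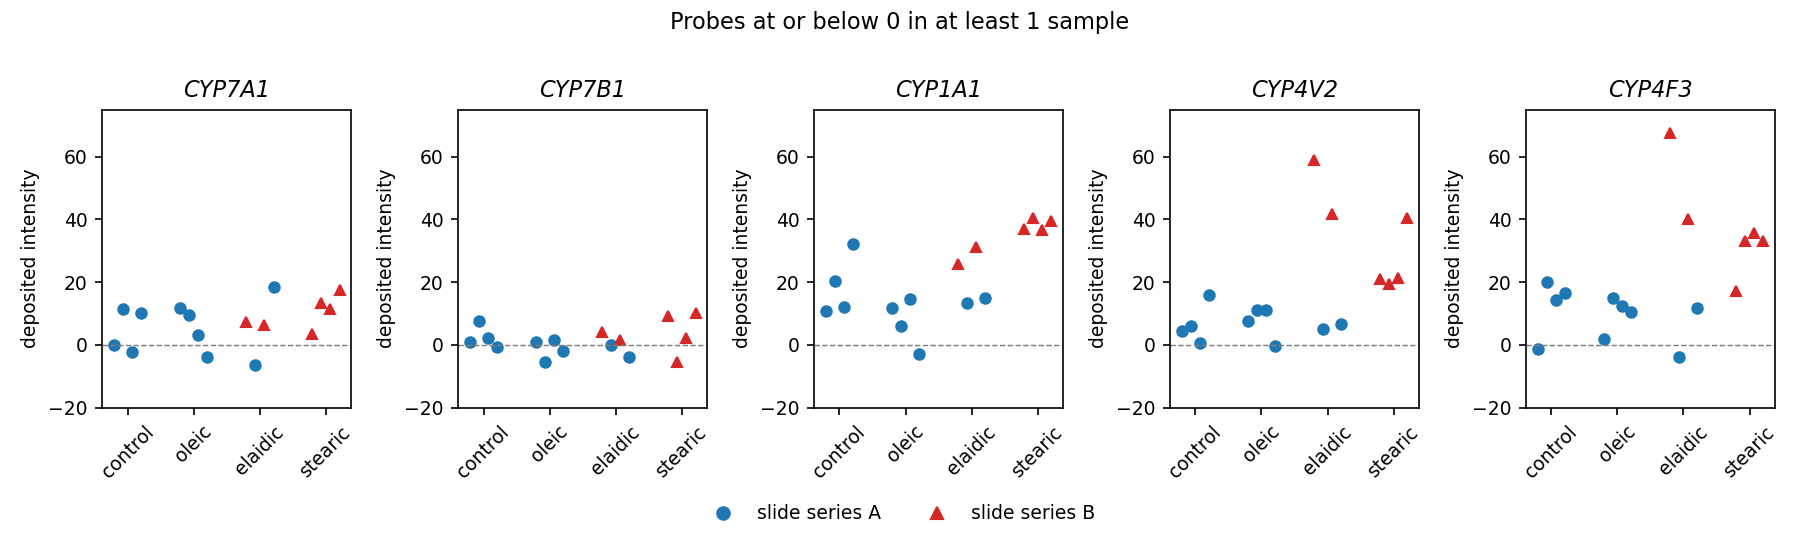
Deposited intensity, not normalised, of 5 P450 probes that were at or below 0 in at least 1 sample, by group (circles series A, triangles series B, dashed line 0). CYP7A1 and CYP7B1 stay between -6.5 and 18.4, while CYP4V2 and CYP4F3 reach 58.9 and 67.5 in an elaidic acid sample of series B.

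Among the remaining families, CYP17A1 (PH_hs_0025651), the steroid 17α-hydroxylase and 17,20-lyase, had the smallest p of all members. It read 11.32, 10.59, 11.62 and 11.46 in control, 11.32, 11.24, 11.44 and 12.11 in oleic acid, 10.53, 11.09, 10.81 and 11.05 in elaidic acid, and 9.76, 10.20, 9.74 and 9.61 in stearic acid (normalised log2 intensity). Stearic acid was below every other sample, including the elaidic acid samples of its own series at 10.53 and 10.81. The difference from control was -1.42 ± 0.27 (n = 4 per group, 2.68-fold lower, adjusted p = 0.0028, limma), and -1.02 ± 0.45 with the block (unadjusted p = 0.0392, adjusted p = 0.63).

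Elaidic acid was above stearic acid in CYP17A1 by 1.04 ± 0.27 (95% interval 0.47 to 1.61), with an adjusted p of 0.10 by limma, and by 0.84 ± 0.32 within series B (adjusted p = 0.67). That difference was called with 50 added to all values, with the dimmest 50% of probes left out (adjusted p = 0.036 in each, with 1.88% of all probes called after the offset) and with array weights (adjusted p = 0.010). Between series within elaidic acid CYP17A1 differed by -0.40 ± 0.37. A second CYP17A1 probe was at or below 0 in 4 samples and read at most 9.0.

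The CYP26 enzymes, which clear retinoic acid, had 4 tested probes. CYP26B1 read 7.20, 6.52, 7.29 and 6.46 in control, 6.98, 6.89, 7.17 and 7.47 in oleic acid, 5.99, 7.01, 6.11 and 6.74 in elaidic acid, and 5.52, 5.52, 5.69 and 5.74 in stearic acid (normalised log2 intensity). Its stearic acid samples were below all others, at -1.25 ± 0.27 from control (adjusted p = 0.0057, limma) and -0.43 ± 0.39 with the block. CYP26A1 was higher with oleic than with stearic acid by 1.26 ± 0.41 (adjusted p = 0.027). It was also the member with the smallest p between the isomers, elaidic minus oleic acid -1.29 ± 0.41 (95% interval -2.16 to -0.41, adjusted p = 0.17), with 5.32, 6.58, 6.55 and 7.15 in elaidic acid and 7.38, 7.49, 7.65 and 8.22 in oleic acid and no overlap, and -0.82 within series A. The 2 CYP26C1 probes differed from control by -0.89 and -0.41 with stearic acid, and neither passed.

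CYP24A1, the vitamin D 24-hydroxylase, was the only tested member whose oleic acid and control samples did not overlap after normalisation. In that comparison 1.23% of all probes did not overlap and 0% were called. It read 3.75, 4.21, 4.24 and 4.31 in control, 5.42, 4.94, 4.75 and 5.67 in oleic acid, 4.33, 5.02, 4.02 and 4.27 in elaidic acid, and 3.06, 4.02, 3.97 and 4.27 in stearic acid (normalised log2 intensity). Oleic acid was above control by 1.07 ± 0.30 (95% interval 0.42 to 1.71, unadjusted p = 0.00313, limma adjusted p = 1), all samples being of series A, and above stearic acid by 1.36 ± 0.30 (adjusted p = 0.0056). The probe is dim, and its deposited intensities, 9.0, 18.0, 19.1 and 30.6 in control and 27, 32.1, 30.7 and 25.0 in oleic acid, overlapped before normalisation.

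For CYP19A1, the aromatase, the probe PH_hs_0022889 was higher with oleic than with stearic acid by 0.77 ± 0.25 (adjusted p = 0.027, limma), while its other probe had a difference of -0.05 ± 0.48. CYP11A1, the cholesterol side chain cleavage enzyme, differed from control by 0.56 with oleic and -0.28 ± 0.37 with stearic acid. CYP20A1, an orphan enzyme left out through 1 sample, read 37.9 to 100.4 in stearic acid (deposited intensity). It read 14.4 to 39.9 in control, -0.7 to 41.6 in oleic acid and 17.5 to 46.2 in elaidic acid, so the groups overlapped. Its oleic acid difference from stearic acid was -0.50 ± 0.18 with 50 added (limma adjusted p = 0.041). That of stearic acid from control, 0.39 ± 0.18, did not pass (adjusted p = 0.12).

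**Figure D4:**
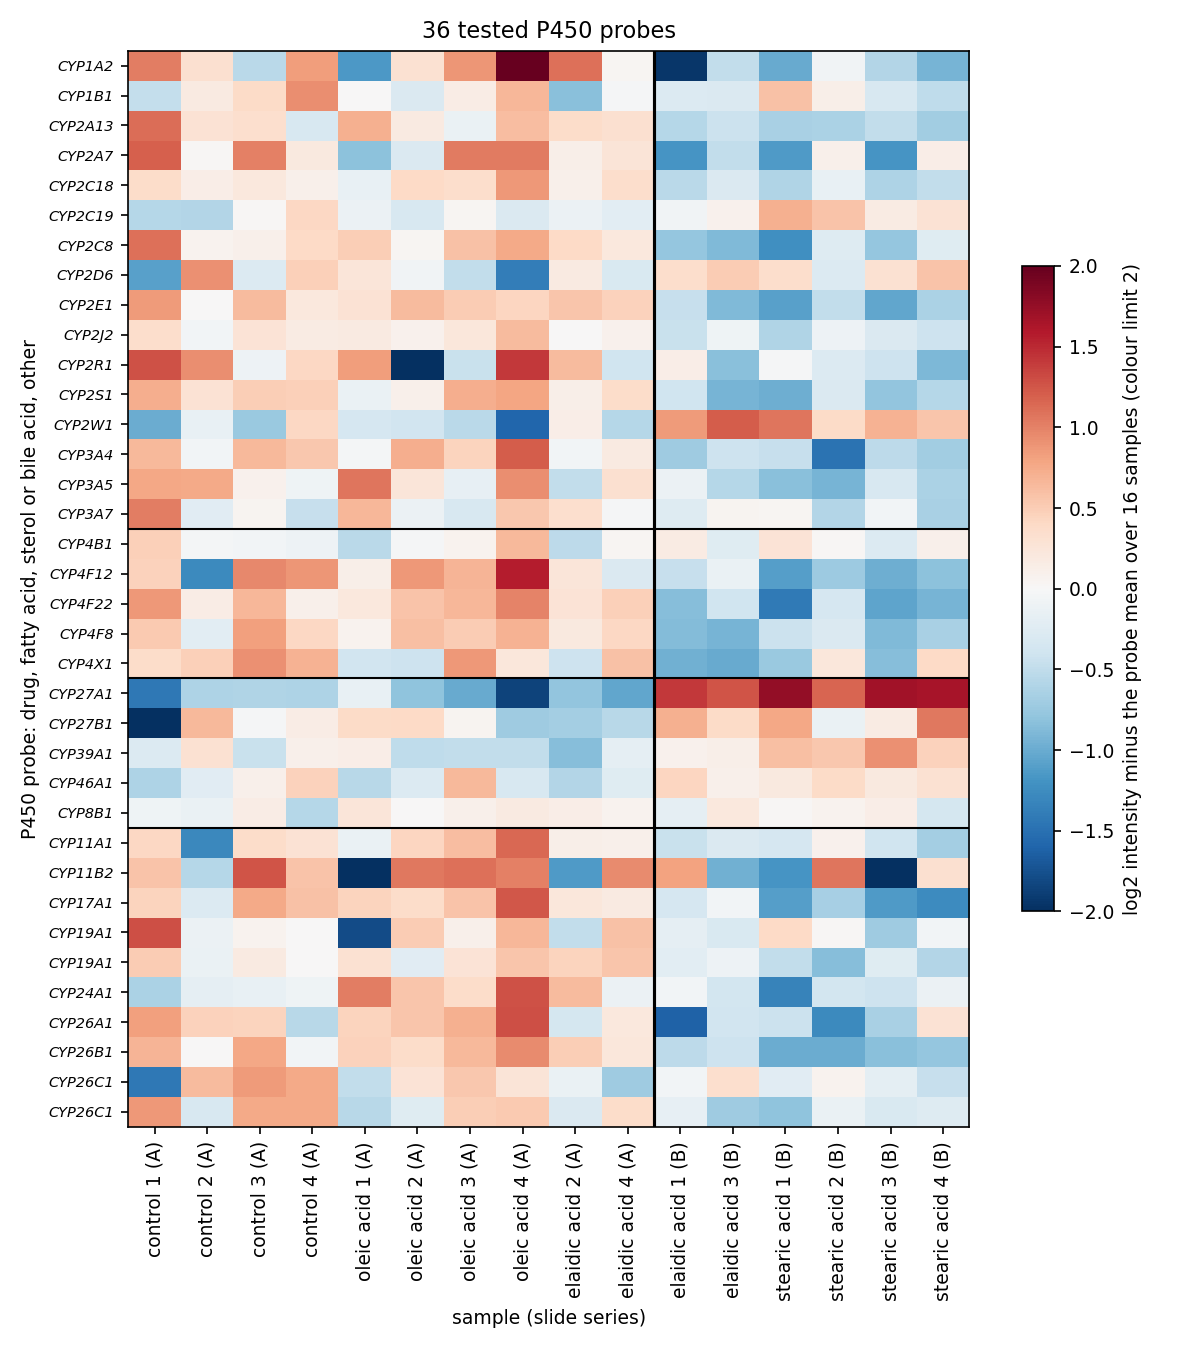
Normalised log2 intensity minus each probe's mean over the 16 samples for the 36 tested P450 probes (rows, by class) in each sample (columns, series A left and B right of the line), with colours limited at 2. CYP27A1 and CYP2W1 are higher, and CYP2E1, CYP4F22 and CYP26B1 lower, in series B columns, those of elaidic acid included.

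The cis and trans isomers, at the same dose and time, gave no called difference among the 36 P450 probes. The median difference of elaidic from oleic acid was -0.44 (all probes -0.13), and -0.17 within series A. After CYP26A1 the smallest p-values belonged to CYP2W1 at 1.12, CYP3A4 at -0.84 (95% interval -1.50 to -0.17) and CYP24A1 at -0.78, with limma adjusted p of 0.20, 0.21 and 0.21. Within series A these 3 were 0.49, -0.52 and -0.55. The intervals leave room for differences of over 1 log2 unit in single genes, so the data do not show that the isomers act alike.

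Elaidic acid against control likewise had a median of -0.41 (all probes -0.10) over the P450 probes, with 28 lower and 8 higher, and -0.15 within series A. Oleic acid against control had a median of 0.04 (all probes 0.01), with 20 higher and 16 lower. The median of elaidic minus stearic acid was 0.25 (all probes 0.07), and 0.05 within series B. With array weights, which weigh samples by their fit to the group means, the elaidic acid comparison with control had 11 called P450 probes (2 higher, 9 lower), beside 20.3% of all probes. That with oleic acid had 16 (2 higher, 14 lower), beside 39% of all probes, so its P450 count was near the general rate. The 6 comparisons draw on the same 4 groups and so share samples.

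**Figure D5:**
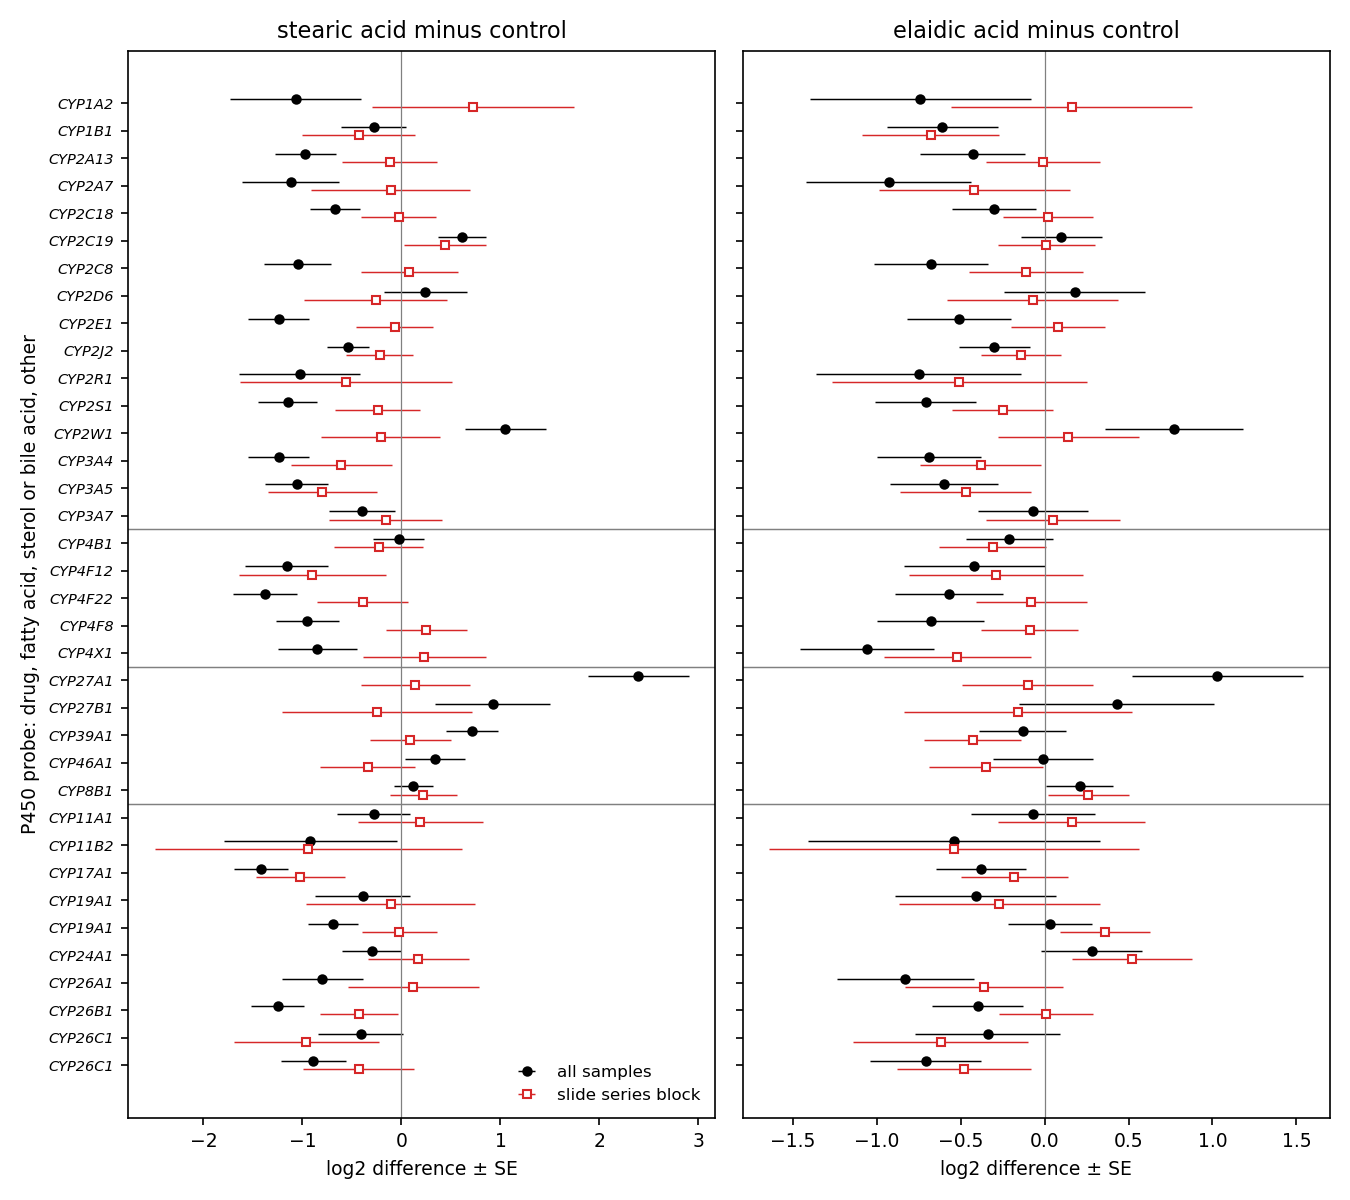
Log2 difference with its SE for each of the 36 tested P450 probes, stearic acid minus control (left) and elaidic acid minus control (right), from all samples (filled circles) and with slide series as a block (open squares). In the left panel CYP27A1 moves from 2.39 to 0.14, and CYP17A1 from -1.42 to -1.02.

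The genes that serve P450 enzymes were read from lists drawn up with earlier results of these data known. Of 9 tested redox partners, 3 were called higher with stearic acid than in control and 0 lower, with a median of 0.44. In this comparison 29.8% of all probes were called, so the number of called redox partners was near the general rate. They were POR, the P450 reductase, at 1.59 ± 0.50, CYB5R3, the cytochrome b5 reductase, at 0.85 ± 0.21, and PGRMC1, a haem-binding P450 partner, at 1.31 ± 0.23 (limma adjusted p = 0.028, 0.0097 and 0.0020). PGRMC1 also rose with elaidic acid, by 1.45 ± 0.23 against control (adjusted p = 0.012) and 1.37 ± 0.23 against oleic acid (adjusted p = 0.021). Within series A the former was 1.11 ± 0.23 (adjusted p = 0.12) and did not pass.

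Of 11 tested genes of haem synthesis and breakdown, 5 were called higher and 3 lower with stearic acid, beside 15% and 14.8% of all probes. HMOX1, the inducible haem oxygenase, rose by 2.95 ± 0.35 (adjusted p = 0.00065, limma), and by 1.81 ± 0.35 with elaidic acid (adjusted p = 0.040). With the block these were 1.66 ± 0.46 and 1.16 ± 0.32, and neither passed (adjusted p = 0.39 and 0.33). ALAS1, the first enzyme of haem synthesis in liver, was higher with stearic acid by 0.84 ± 0.22, and PPOX, a late one, by 1.79 ± 0.36. FECH, which inserts the iron, was lower by 1.15, and ALAD, an early one, by 1.38. With the series block limma called 0 of the 11. The list's median then went from 0.65 to 0.38, and 9 of the 11 were higher instead of 6.

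Of 24 listed regulators of P450 genes 17 were tested, and 3 were called higher and 5 lower with stearic acid, beside 15% and 14.8% of all probes. CEBPB, RXRA and NR0B2 (SHP), the repressor of bile acid synthesis, were higher by 2.57 ± 0.64, 1.44 ± 0.49 and 0.76 ± 0.19. PPARA, AHR, its partner ARNT, NR1H3 (LXRα) and ONECUT1 were lower, with differences of -0.93 ± 0.30, -0.90 ± 0.31, -1.49 ± 0.41, -0.87 ± 0.29 and -1.04 ± 0.34. With the series block CEBPB, RXRA and NR0B2 were at 0.57, 0.64 and 0.61. The lower regulators were then at -0.49, -0.04, -0.02, -0.56 and -0.83, in the order given. NR1I2 (PXR), NR1I3 (CAR) and NR1H4 (FXR) were not called, at -0.35 ± 0.24, -0.50 ± 0.19 and 1.55 ± 0.58 (limma adjusted p = 0.26, 0.055 and 0.055). With the block these 3 were at 0.03, -0.93 and -0.18. Of 12 tested bile acid synthesis genes outside the family 3 were higher (SCP2 at 2.25, AKR1C4 at 2.18 and SLC27A2 at 1.34) and 2 lower (CH25H at -0.80 and STARD4 at -1.10), beside the same shares. With the series block SCP2, AKR1C4 and SLC27A2 were at -0.23, 0.59 and -0.07, and CH25H and STARD4 at -0.73 and -1.56. Over the 49 genes tested in these 4 lists limma called 0 between oleic acid and control and 0 between elaidic and stearic acid, with 0 and 12 at an unadjusted p under 0.05, beside 2.62% and 14.5% of all probes. Between oleic and stearic acid it called 4 redox partners, 8 haem genes, 7 regulators and 7 bile acid genes, beside 39.5% of all probes. With the series block limma called 0 in any comparison. Unadjusted p was then under 0.05 for 0 to 5 of the 49, beside 3.31% to 7.45% of all probes. The 5 were between elaidic and stearic acid, where 5.82% of all probes were.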

How the data were processed

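Probe values were the authors' deposited intensity per sample, a linear background-subtracted Cy5 intensity that goes below 0 and was not scaled between samples (from the values). Background method and image software are not given in the sources used here, nor how the 2 technical replicates per sample were combined. Probes carried gene symbols from the platform annotation supplied with the series: 17397 probes had a symbol and 13571 had none. A value of 0 or less in any sample removed 8029 probes (25.9%). The remaining 22939 were taken to log2, quantile-normalised and fitted over all 16 samples with limma 3.58.1 (lmFit, eBayes) in R 4.3.3, with 6 contrasts, two-sided, and Benjamini-Hochberg adjustment over all probes of a contrast, called at 0.05. Standard errors and 95% intervals are from that fit. Scripts were tested on simulated data.

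Groups were taken from the titles and fatty acid labels, and slide series from array numbers in the labels. Members and lists were chosen with earlier results of these data known. Named genes were every member called in any contrast, the 3 of smallest p in each direction of a contrast, and a fixed list of liver P450 genes, and further members are given for completeness by class. Pathway lists were redox partners, haem genes, P450 regulators, bile acid genes, hepatocyte markers and markers of other cell types. Alternatives were other scalings, an offset, a filter on dim probes, series and replicate blocks, array weights and left-out samples. Python 3.11.15 and matplotlib 3.10.9 drew the figures. No 2 samples were identical (Spearman's rho 0.783 to 0.98). The number of arrays limits the precision. All 46 symbols are current in RefSeq, whose gene order was used for neighbours only.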

Additional observations from a re-analysis of the deposited data

Results flagged for a closer look

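In 120 groups of 4 samples, from 30 named P450 probes, 6 held 1 sample far from the other 3 by Dixon's criterion, which chance meets in about 1 of 20 groups. All values are normalised log2 intensities. Control sample 2 was low for CYP11A1, at 5.95 where the others were 7.52 to 7.65, for CYP3A4, at 6.23 against 6.83 to 6.94, and for 1 probe of CYP26C1, at 4.70 against 5.77 to 5.89. CYP27A1 in control sample 1 was at 9.72 against 10.53 to 10.55. In oleic acid, CYP2W1 was low in sample 4, at 6.30 against 7.35 to 7.55, and CYP39A1 high in sample 1, at 8.55 against 7.91 to 7.92.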

How the results depend on the processing

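Counts of called P450 probes follow, with the value as reported first. Between stearic acid and control the 12 became 1 without normalisation between samples, 0 with the slide series block and 21 with array weights, and 7 to 14 when 1 sample was left out (7 without stearic acid sample 1). Over all probes the 6825 called became 3099, 0 and 10585, and 3564 without stearic acid sample 1. Between oleic and stearic acid the 19 became 4 without normalisation, 0 with the series block, 12 without the 2 dimmest arrays (an alternative added after seeing the data) and 10 to 20 when 1 sample was left out (10 without oleic acid sample 4, 11 without stearic acid sample 1). Over all probes the 9057 called became 5125, 0 and 6023, and 4767 without oleic acid sample 4 and 5240 without stearic acid sample 1. The count of 0 became 11 between elaidic acid and control and 16 between elaidic and oleic acid with array weights, and 1, CYP17A1, between elaidic and stearic acid with array weights, with 50 added to all values or with the dimmest 50% of probes left out. Over all probes 4656 and 8953 were called in the former 2 comparisons. Between elaidic and stearic acid 1030, 581 and 369 were called under those settings. Leaving out 1 sample kept 0 in the other 4 comparisons.

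Median log2 differences over the tested P450 probes moved by more than the replicate spread as follows. Without normalisation they were -0.23 (elaidic acid minus control), -0.23 (stearic acid minus control), -0.16 (elaidic minus oleic), -0.13 (elaidic minus stearic) and 0.09 (oleic minus stearic), where the median of all probes became 0.01, 0.26, 0.12, -0.28 and -0.39. With 50 added they were -0.09, -0.17, -0.09, 0.06 and 0.11, and with the series block -0.15, -0.19, -0.17, 0.05 and 0.16, in the same order. Array weights gave -0.57 for elaidic acid minus control and 0.10 for elaidic minus stearic acid. Alternatives added after seeing the data gave -0.61 (stearic acid minus control) and 0.39 (oleic minus stearic) without the 2 dimmest arrays, -0.16 (elaidic acid minus control) and -0.17 (elaidic minus oleic) in series A alone, and 0.04 (elaidic minus stearic) in series B alone. With 1 sample left out the range was -0.50 to -0.27, -0.05 to 0.14 (oleic acid minus control), -0.77 to -0.63, -0.57 to -0.30, 0.12 to 0.34 and 0.51 to 0.85.

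Single probes changed sign in 8 cases. CYP27A1 between elaidic acid and control was -0.10 with the series block and -0.09 in series A alone. With the block, stearic acid minus control was 0.25 for CYP4F8, 0.08 for CYP2C8 and -0.21 for CYP2W1, and oleic minus stearic acid was -0.16 for CYP4F8 and -0.03 for CYP2C8. CYP2C18 between oleic and stearic acid was -0.04 without normalisation. Of the other values of named probes, 926 kept direction and side of the threshold, 131 lost the threshold and 26 gained it. The cause was not tested.

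Same-numbered samples correlated by -0.46 to 0.36 in their deviations, and in no comparison were all above 0.1. They were not paired in the main fit, and whether they shared a passage or day is not stated. With the replicate block limma called 8 P450 probes between stearic acid and control, 19 between oleic and stearic acid and 0 in the other comparisons. The share of all probes called with that block is not given here, so these counts do not set the P450 probes apart from other probes. Signal over background limits the 13 probes at or below 0 in at least 1 sample, and for CYP7A1 and CYP7B1 no level is given.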
